A study of Mus musculus with 4 samples.

Results

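The tumour necrosis factor (TNF) family pairs ligands, most of them made as trimeric proteins on the cell surface and some cut loose from it, with receptors that carry cysteine-rich repeats outside the cell. Bound receptors either recruit TRAF adaptors, which lead to NF-kappaB and MAP kinase signalling, or, where they carry a death domain, can also lead to caspases and cell death. In helper T cells the family supplies inflammatory cytokines, the costimulatory receptors that appear after activation, the CD40 ligand signal to B cells and the Fas route that limits clones. The genes described here were chosen by family name, with no threshold on a measured value. They were 40 of the 50600 genes counted, 17 of them ligands and 23 of them receptors, and all 40 symbols were found.

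The samples were 4 RNA-seq libraries of Th17 cells, the CD4 helper cells defined by interleukin-17, and all 4 formed 1 group, replicates 1 to 4. They were primary cells of C57BL/6NJ mice, taken through a linked protocol for differentiating CD4 T cells, and the file headers name them as cells at 72 hours. No genetic change or agent was listed, age and sex were not given, and no untreated cell or other subset was among the samples analysed here. The comparisons that the design allowed were therefore the level of each gene against a fixed threshold and each library against the other 3, which asks how well the replicates match. The replicates are separate biosamples under 1 donor identifier, and nothing says that they came from separate animals, so the p-values measure only the spread between these samples, which may be technical.

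Each library held between 33123029 and 37746767 counts in genes. Replicate 2 stood apart: the chi-square of the counts per degree of freedom was 44.6 to 49.4 between it and each other library, against 4.44 to 6.61 among replicates 1, 3 and 4. All 10 genes of a Th17 marker list and all 12 of a general T cell list lay above 1 TPM (counts per base of gene length, rescaled so that every library has an equal total). The summed level of the Th17 list was 1573 TPM in replicate 2, against 5604 to 6350 TPM in the other 3 libraries, with Il17a at 505 TPM in replicate 2, against 2543, 2181 and 2155 TPM in replicates 1, 3 and 4. The T cell list summed to 5816 TPM in replicate 2, against 5872 to 6138 TPM. Replicate 2 lay outside the range of the other 3 libraries in 71.4% of all genes tested and in 78.6% of those at 5 TPM or more, so values that do not overlap were the usual state. In bulk RNA, a lower value through fewer cells of a type cannot be told apart from one through less RNA per cell.

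Most of the family was present in these cells. A gene with at least 10 counts over the 4 libraries was tested against a level of 1 TPM with edgeR's quasi-likelihood test, with Benjamini-Hochberg adjustment over all genes tested and a threshold of 0.05. Of all 17337 genes tested, 12243, or 70.6%, lay above 1 TPM and 2851, or 16.4%, below it. Of the 40 family members, 37 could be tested and 33 lay above, 12 of them ligands and 21 receptors. Tnfsf12, Tnfsf13b and Tnfrsf11a lay below, and Tnfsf15 passed in neither direction (adjusted p = 0.234). Without replicate 2 the same test again placed 33 members above, and Tnfsf15 then lay below (log2 level -1.20, adjusted p = 0.00314). The levels ran from 0 counts to the 1255 TPM of Tnfrsf4.

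**Figure D1:**
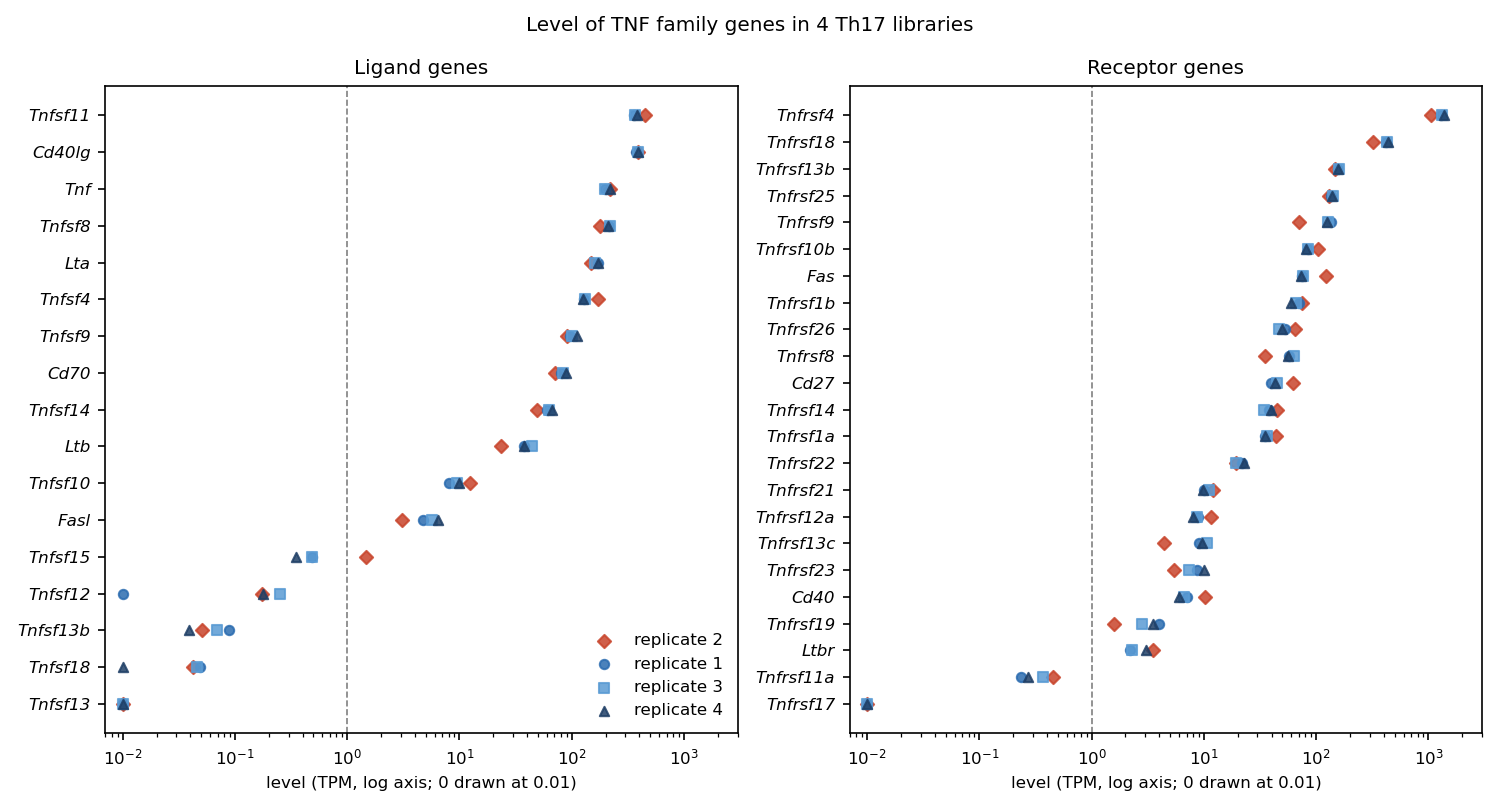
Level of each of the 17 ligand genes and 23 receptor genes, in TPM on a log axis and ordered by mean, with 1 symbol per library, 0 drawn at 0.01 and a dashed line at 1 TPM. Tnfsf11 and Cd40lg stand highest among the ligands, with Tnfsf11 first by the mean through replicate 2 alone, and Tnfrsf4, at 1255 ± 144 TPM (SD, n = 4), among the receptors, while Tnfsf13 and Tnfrsf17 are at 0.

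Tnf and Lta were among the higher ligands of the family, and Ltb was lower. Tnf, the cytokine that gives the family its name, stood at 218 TPM in replicate 2, against 197, 199 and 219 TPM in replicates 1, 3 and 4. Lta, lymphotoxin alpha, which is secreted as a homotrimer or held at the membrane with lymphotoxin beta, stood at 148 TPM in replicate 2, against 172, 160 and 171 TPM. Ltb, the membrane anchor of that heterotrimer, stood at 23.3 TPM in replicate 2, against 37.3, 44.1 and 37.9 TPM. The values of Tnf overlapped between replicate 2 and the other libraries, while those of Lta and Ltb were lowest in replicate 2. Tnfsf14, or LIGHT, a ligand of HVEM and of the lymphotoxin beta receptor, averaged 59.9 ± 7.47 TPM (SD, n = 4).

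The receptors of Tnf and Lta stood below them. Tnfrsf1b, TNF receptor 2, the form typical of lymphocytes, averaged 67.7 ± 6.27 TPM and Tnfrsf1a, the widely expressed TNF receptor 1, which carries a death domain, 37.5 ± 4.07 TPM (SD, n = 4 each). Tnfrsf14, or HVEM, averaged 39.1 ± 4.41 TPM. Ltbr, the lymphotoxin beta receptor, known mainly from stromal and myeloid cells, averaged 2.75 ± 0.633 TPM. The Ltb level per length was thus 6.69 times that of Ltbr in replicate 2 and 17.1, 19.5 and 12.3 times in replicates 1, 3 and 4. For Tnf over Tnfrsf1a the ratio was 5.01 in replicate 2, against 5.61, 5.43 and 6.31.

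Fas, the TRAIL receptor and death receptor 3 stood far above their ligands. Fas, the receptor that lets activated T cells be killed, stood at 122 TPM in replicate 2, against 74.8, 75.6 and 73.3 TPM in replicates 1, 3 and 4. Fasl, its ligand, stood at 3.07 TPM in replicate 2, against 4.69, 5.75 and 6.46 TPM. Neither gene's values overlapped between replicate 2 and the rest, and Fas was the higher of the pair by 39.8 times in replicate 2, against 15.9, 13.2 and 11.4 times. Tnfrsf10b, the mouse receptor of TRAIL, averaged 88.9 ± 10.4 TPM and Tnfsf10, which encodes TRAIL, 9.98 ± 1.85 TPM (SD, n = 4 each). Tnfrsf25, death receptor 3, which costimulates T cells when bound by TL1A, stood at 129 TPM in replicate 2, against 137, 142 and 138 TPM. Its ligand Tnfsf15, which encodes TL1A, had 56 counts in replicate 2, against 16, 17 and 13 counts, or 1.46 TPM against 0.483, 0.483 and 0.347 TPM. Tnfrsf21, death receptor 6, averaged 10.7 ± 1.05 TPM.

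Mice also carry receptors near Tnfrsf10b in sequence that bind TRAIL without a death domain. Of these, Tnfrsf22 averaged 20.7 ± 1.76 TPM (SD, n = 4), and Tnfrsf23 stood at 5.4 TPM in replicate 2, against 8.64, 7.35 and 10.1 TPM in replicates 1, 3 and 4. The related Tnfrsf26 averaged 53.6 ± 8.17 TPM. The 3 genes are close copies of one another, so reads could be divided between them wrongly.

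The costimulatory receptors took most of the receptor RNA. Tnfrsf4, which encodes OX40, a receptor that prolongs T cell survival after activation, stood at 1044 TPM in replicate 2, against 1283, 1327 and 1365 TPM in replicates 1, 3 and 4. It ranked at the 99.5th percentile of the protein-coding genes tested. Tnfrsf18, which encodes GITR, stood at 324 TPM in replicate 2, against 415, 426 and 437 TPM. Tnfrsf9, or 4-1BB, induced on activated T cells, stood at 70.1 TPM in replicate 2, against 135, 128 and 125 TPM. Tnfrsf8, which encodes CD30, stood at 35.0 TPM in replicate 2, against 57.1, 63.5 and 56.6 TPM. These 4 receptors were each lowest in replicate 2. Cd27, the receptor of CD70, went the other way, at 62.0 TPM in replicate 2, against 39.2, 44.7 and 42.8 TPM. Cd40, the receptor through which helper cells act on B cells and antigen-presenting cells, was low, at 10.2 TPM in replicate 2, against 7.02, 6.62 and 6.03 TPM. Summed over the family, receptor RNA came to 2334 TPM in replicate 2, against 2650, 2702 and 2730 TPM. Tnfrsf4 alone made up 44.7% of that sum in replicate 2, against 48.4% in replicate 1, 49.1% in replicate 3 and a higher share still in replicate 4.

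**Figure D2:**
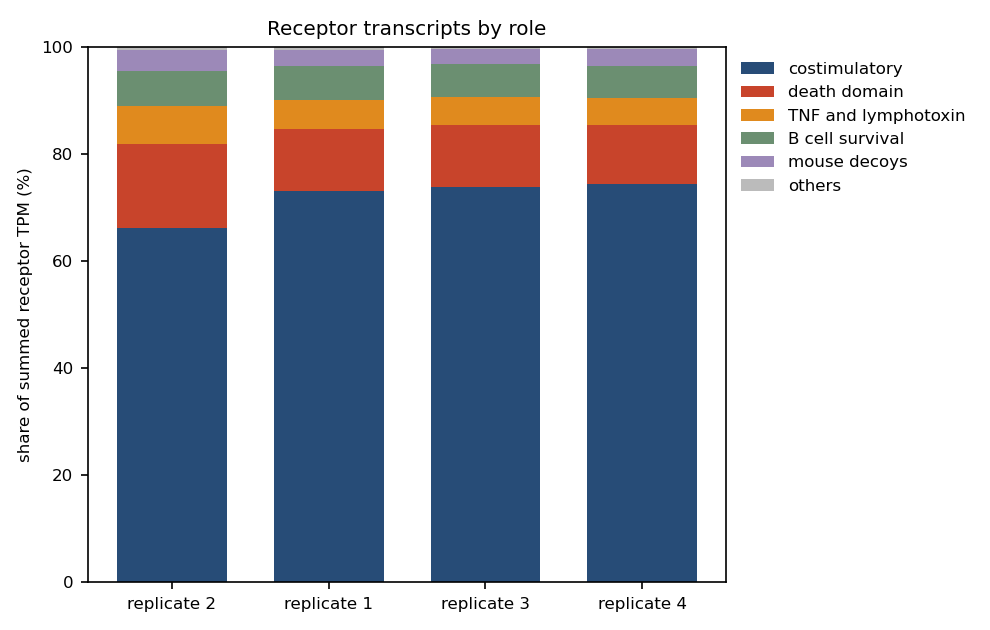
Percent of the summed receptor TPM on the vertical axis, stacked by the role of the receptor, with 1 bar per library. Costimulatory receptors hold 66.2% in replicate 2, against 73.1%, 73.8% and 74.4% in replicates 1, 3 and 4, and the death-domain receptors other than Tnfrsf1a, which is drawn with the TNF and lymphotoxin group, hold 15.7%, against 11.6%, 11.6% and 11.1%.

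Costimulatory ligands were present as well, though not all of them. Cd40lg, the helper signal to B cells, stood at 389 TPM in replicate 2, against 375, 392 and 388 TPM in replicates 1, 3 and 4. Tnfsf8, the CD30 ligand, averaged 205 ± 17.2 TPM, Tnfsf4, the OX40 ligand, 139 ± 21.9 TPM, Tnfsf9, the 4-1BB ligand, 100.2 ± 9.04 TPM and Cd70 80.6 ± 7.76 TPM (SD, n = 4 each). Tnfsf4 and Tnfsf9 are best known from antigen-presenting cells. Tnfsf18, the GITR ligand, had 1 count in replicate 2, against 1, 1 and 0 counts, where 3 counts would correspond to 0.127 TPM in replicate 2 and to 0.147, 0.138 and 0.130 TPM in the others. GITR was thus high in libraries with almost no RNA of its ligand, whereas RNA of OX40, CD30, 4-1BB and CD27 stood beside RNA of their own ligands. Cd40lg exceeded Cd40 by 38.3 times per length in replicate 2, against 53.4, 59.2 and 64.3 times.

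Tnfsf11 encodes RANKL, the ligand that drives osteoclast formation, and was with Cd40lg one of the 2 highest ligands. Tnfsf11 stood above Cd40lg in replicate 2 and below it in replicates 1, 3 and 4. It stood at 449 TPM in replicate 2, against 359, 370 and 382 TPM in replicates 1, 3 and 4. Its receptor Tnfrsf11a, or RANK, which is typical of myeloid and dendritic cells, stood at 0.452 TPM in replicate 2, against 0.236, 0.366 and 0.269 TPM. The ligand thus stood 993 times above its receptor in replicate 2, and 1521, 1011 and 1423 times above it in the other 3. Tnfsf12, or TWEAK, had 3 counts in replicate 2, against 0, 4 and 3 counts, while its receptor Tnfrsf12a averaged 9.27 ± 1.54 TPM (SD, n = 4). Tnfrsf19, or TROY, a receptor studied chiefly in epithelium and brain, stood at 1.57 TPM in replicate 2, against 3.95, 2.83 and 3.50 TPM.

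The B cell survival branch was one-sided. Tnfrsf13b, which encodes TACI, a receptor of BAFF and APRIL best known from B cells, stood at 148 TPM in replicate 2, against 156, 158 and 155 TPM in replicates 1, 3 and 4. Tnfrsf13c, the BAFF receptor, stood at 4.37 TPM in replicate 2, against 9.06, 10.7 and 9.70 TPM, and Tnfrsf17, which encodes BCMA, had 0 counts in each library, where 3 counts would correspond to 0.321 TPM in replicate 2 and to 0.372, 0.350 and 0.329 TPM. Tnfsf13b, which encodes BAFF, had 4 counts in replicate 2, against 6, 5 and 3 counts. Tnfsf13, which encodes APRIL, had 0 counts, but 60.0% of its exon bases lie on the same strand in an overlapping read-through gene, Tnfsfm13, as do 48.3% of those of Tnfsf12. Reads over such bases may have been left out, so the low counts of this pair are uncertain. TACI was thus at the level of Lta and Tnfsf4. Of 8 tested genes of the B cell list, 2 lay above 1 TPM, Ighm and Ebf1. The list summed to 109.5 TPM in replicate 2, against 105.6 to 114.4 TPM in the others. Cd79a, a chain of the B cell receptor, stood at 0.42 TPM in replicate 2, against 0.69, 0 and 0.25 TPM in replicates 1, 3 and 4.

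**Figure D3:**
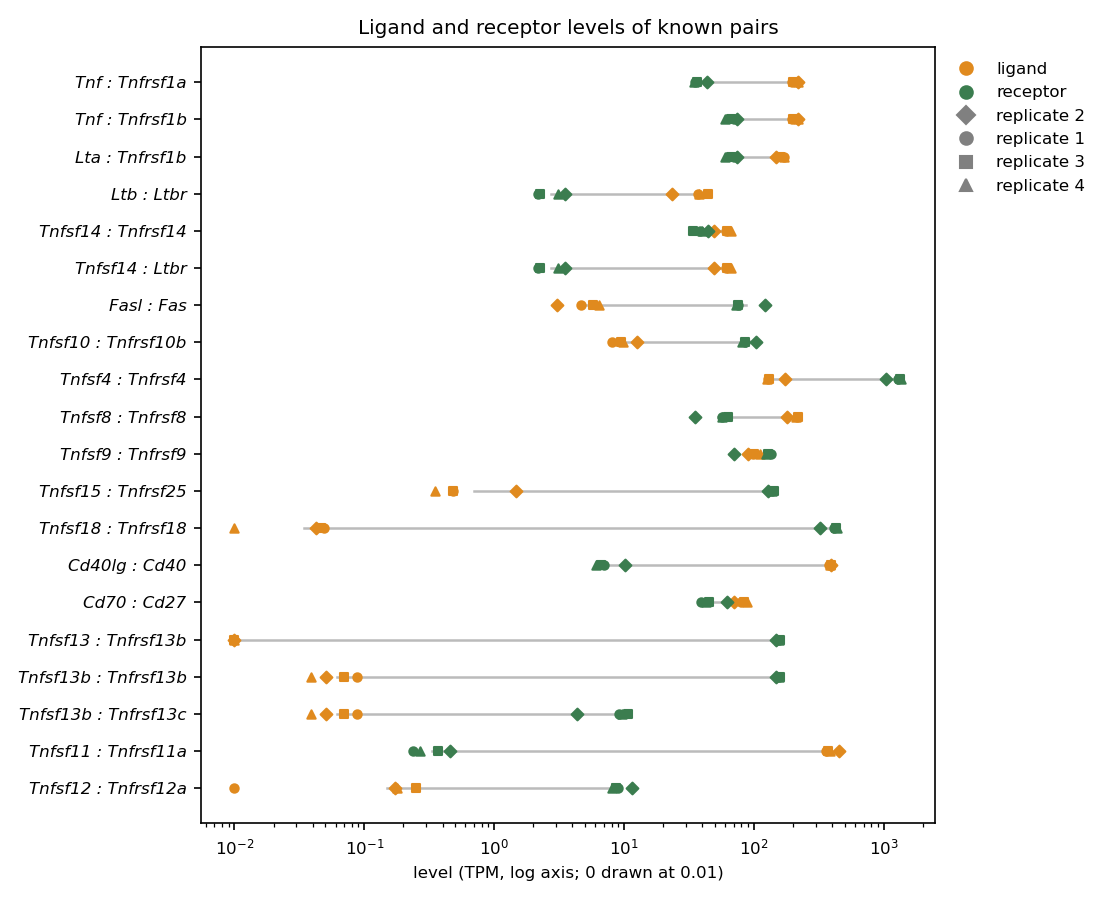
Level in TPM on a log axis for 20 pairs of a ligand and its receptor, 1 row per pair, with symbols for single libraries, 0 drawn at 0.01 and a grey line joining the means. The ligand stands far to the right of its receptor for Tnfsf11 and Tnfrsf11a, and far to the left for Tnfsf15 and Tnfrsf25.

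Replicate 2 was next set against the other 3 libraries with edgeR's quasi-likelihood test, gene by gene over all 17337 genes, with Benjamini-Hochberg adjustment. Over all genes, 3907 were called, or 22.5%, with 2024 higher (11.7%) and 1883 lower (10.9%). Of the 37 members tested, 23 were called (62.2%), 12 higher and 11 lower, and 14 were not. The members are better expressed than most genes, and among the 10226 genes with a mean of at least 5 TPM the call was made for 31.1%, 16.6% higher and 14.5% lower. Of the members at that level, 20 of 30 were called (66.7%), 11 higher and 9 lower. The median absolute log2 change was 0.34 in these 30 members, against 0.14 in all genes of that level, and the median signed change over all members was 0.07, against -0.01 over all genes tested. Family members were thus higher and lower in about equal numbers.

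**Figure D4:**
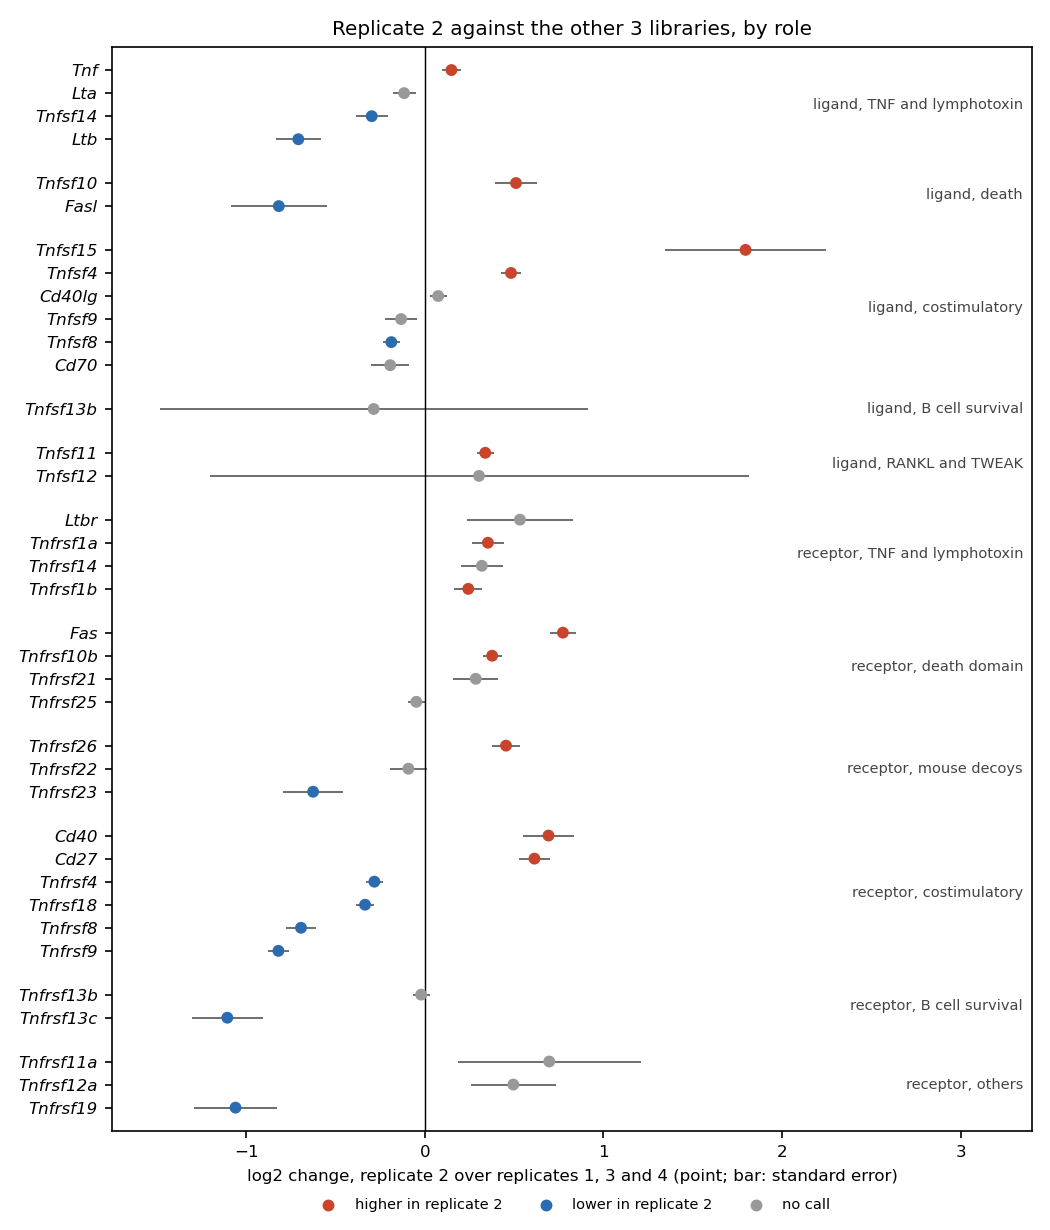
Log2 change of replicate 2 over replicates 1, 3 and 4 on the horizontal axis for each member tested, grouped by role; points are fitted changes and bars standard errors, coloured by call. Fas, Cd40, Cd27 and Tnfsf4 lie to the right of 0, and Tnfrsf9, Tnfrsf8 and Tnfrsf13c to the left.

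Among costimulatory receptors all 6 members were called, 4 lower and 2 higher. Tnfrsf9 fell by 0.82 on the log2 scale (SE 0.06, adjusted p = 9.52e-10), Tnfrsf8 by 0.69 (SE 0.08, adjusted p = 1.99e-06), Tnfrsf18 by 0.33 (SE 0.05, adjusted p = 3.35e-05) and Tnfrsf4 by 0.28 (SE 0.05, adjusted p = 0.000124). Cd40 was higher by 0.69 (SE 0.14, adjusted p = 0.00125) and Cd27 by 0.61 (SE 0.09, adjusted p = 2.32e-05). Fas, which activated T cells carry, was higher by 0.77, and a difference in activation was not tested. The 4 lower receptors are known from activated and regulatory T cells, and Cd27 from resting T cells as well. A marker list of regulatory T cells, which share those receptors, summed to 1096 TPM in replicate 2, against 2327 to 2412 TPM. Most of it was Ctla4 and Il2ra. Ctla4 stood at 422 TPM in replicate 2, against 1405, 1403 and 1334 TPM in replicates 1, 3 and 4. Il2ra stood at 647 TPM in replicate 2, against 979, 973 and 964 TPM. Ikzf2, Ikzf4 and Nrp1 were also lowest in replicate 2, while Lrrc32 was highest there. Foxp3, which defines that cell type, lay below 1 TPM. The part of that list in the change was not tested.

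Receptors of the TNF and death branches were called in 1 direction only. Fas rose by 0.77 (SE 0.07, adjusted p = 8.02e-08), Tnfrsf10b by 0.38 (SE 0.05, adjusted p = 1.46e-05), Tnfrsf1a by 0.35 (SE 0.09, adjusted p = 0.00586) and Tnfrsf1b by 0.24 (SE 0.08, adjusted p = 0.0457). The other 4 receptors of these branches were not called, among them Tnfrsf14 at 0.32 (SE 0.12, adjusted p = 0.0606), which passed without replicate 1 (0.34, adjusted p = 0.0341) or without replicate 4 (0.36, adjusted p = 0.0340). The call of Tnfrsf1b was lost with DESeq2 (adjusted p = 0.0549) and with its size factors in edgeR (adjusted p = 0.0550), and ranged from 3.84e-05 to 0.0550 over the alternatives. The decoy-like receptors split, with Tnfrsf26 higher by 0.45 (SE 0.08, adjusted p = 0.000154) and Tnfrsf23 lower at -0.63 (SE 0.17, adjusted p = 0.00902).

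The ligands divided 5 higher, 4 lower and 6 without a call. Tnfsf4 rose by 0.48 (SE 0.05, adjusted p = 9.53e-07) in the library in which its receptor Tnfrsf4 was lower, and Tnfsf11 rose by 0.34 (SE 0.05, adjusted p = 1.71e-05). Tnfsf10 rose by 0.51 (SE 0.12, adjusted p = 0.00289) together with its receptor Tnfrsf10b. Tnfsf15 rose by 1.80 (SE 0.45, adjusted p = 0.00581), a call lost with DESeq2 (adjusted p = 0.0573) and ranging from 0.00179 to 0.0573 over the alternatives. Ltb fell by 0.71 (SE 0.13, adjusted p = 0.000265), Tnfsf14 by 0.30 (SE 0.09, adjusted p = 0.0213) and Tnfsf8 by 0.19 (SE 0.05, adjusted p = 0.00775). Fasl fell by 0.82 (SE 0.27, adjusted p = 0.032), which was lost with DESeq2 (adjusted p = 0.122) and without replicate 4 (-0.71, adjusted p = 0.0896), within a range of 0.00798 to 0.122. Fasl was thus lower in the library in which its receptor Fas was higher.

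Tnf itself barely passed, at 0.15 (SE 0.05, adjusted p = 0.0499), and its TPM values overlapped between replicate 2 and the rest. Its adjusted p ranged from 0.00317 to 0.178 over the alternatives, with the call kept in 3 of 8. It was lost with DESeq2 (0.178), with DESeq2's size factors in edgeR (0.0546), without a robust prior (0.0718), without replicate 1 (0.117) and without replicate 3 (0.0621). Lta, at -0.12 (SE 0.06, adjusted p = 0.224), and Cd40lg, at 0.07 (SE 0.05, adjusted p = 0.307), were not called. These 3 ligands differed little beside the summed Th17 markers, which stood far lower in replicate 2. Tnfrsf13c fell by 1.11 (SE 0.20, adjusted p = 0.000303) and Tnfrsf19 by 1.06 (SE 0.23, adjusted p = 0.002), while Tnfrsf13b was not called (-0.02, SE 0.05, adjusted p = 0.825).

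Genes of myeloid and dendritic cells, which carry Cd40, Tnfsf4 and Tnfsf15, summed to 35.0 TPM in replicate 2, against 21.8 to 23.2 TPM in the others. Of 8 genes of that list tested, 1 was higher, Flt3 at 11.5 TPM in replicate 2, against 1.29, 0.85 and 0.88 TPM, and 1 was lower, Adgre1. Lyz2, S100a8, S100a9 and Siglech had 0 counts in every library. The part of this list in the changes of Cd40, Tnfsf4 and Tnfsf15 was not tested. A list of CD8 T cells summed to 35.4 TPM in replicate 2, against 49.2 to 56.3 TPM. Most of it was Cd8b1, at 31.6 TPM in replicate 2, against 48.0, 41.6 and 46.9 TPM. Cd8a had 1 count in replicate 2, against 0, 3 and 2 counts. A list of gamma-delta and innate-like T cells summed to 6.13 TPM, against 2.69 to 3.88 TPM. Most of it was Sox13, at 4.33 TPM, against 2.41, 1.79 and 2.46 TPM. Trdc lay below 1 TPM and Zbtb16 had 0 counts. The part of either list in the changes was not tested.

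No member was called in replicate 1, 3 or 4. Set against the other 3 libraries in the same way, each had 0 members and 0 of all genes called by edgeR's quasi-likelihood test, and at an unadjusted p under 0.05 it had 0 members and 166, 257 and 128 genes in replicates 1, 3 and 4. DESeq2 called 0 members in each, with 2, 15 and 3 genes in replicates 1, 3 and 4. In each of these tests replicate 2 was among the other 3 libraries and widened their spread. The standard error of Fas was 0.38, 0.39 and 0.37 for replicates 1, 3 and 4, against 0.07 for replicate 2. The lack of calls therefore says little about how well these libraries match, and counts over all genes without replicate 2 are given below. The median coefficient of variation of the 37 tested was 15.3% over 4 libraries, against 12.8% over all genes tested. Over replicates 1, 3 and 4 it was 6.47%, against 7.25%. For the 30 members at 5 TPM or more it was 11.6% over 4 libraries, against 6.95% over all genes of that level. Over replicates 1, 3 and 4 the members of that level had 5.33%, against 3.93%. Replicate 2 lay outside the range of the other 3 in 33 of the 37 members, 16 above and 17 below, against 71.4% of all genes tested. Of the 30 members at 5 TPM or more it did so in 28, against 78.6% of all genes at that level.

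Several family genes lie side by side in the mouse genome (mm10), and neighbours did not all change alike. Tnfrsf4 (chr4:156013843-156016612) and Tnfrsf18 (chr4:156026164-156028895) lie 9.55 kb apart and were both lower. Tnfrsf1b and Tnfrsf8, 20.3 kb apart on chromosome 4, went in opposite directions, as did Tnfsf15 and Tnfsf8, 86.2 kb apart on the same chromosome. In the lymphotoxin locus of chromosome 17, Ltb (chr17:35194439-35196320) ends 3.06 kb from Tnf (chr17:35199381-35202007), which ends 1.16 kb from Lta (chr17:35203165-35205351). In that locus Ltb was lower, Tnf was marginally higher and Lta was not called. On chromosome 7, Tnfrsf26 was higher, Tnfrsf22 was not called and Tnfrsf23 was lower.

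Promoter sequence was looked at because NF-kappaB and AP-1, the factors that act below these receptors and below the T cell receptor, are textbook regulators of several members. The 250 bases upstream of RefSeq starts (GRCm38.p6) were available for 31 of the 40 members, as 35 promoters. The AP-1 motif TGANTCA, which reads the same on both strands in its fixed letters, stood in 6 of them (17.1%), against 6.75% of 32851 promoters. The NFAT core TGGAAA, searched on both strands, stood in 7, against 18.6% of all promoters. The consensus kappaB motif, on either strand, stood in 1 (2.86%), that of Ltb, against 0.140%. Looser kappaB forms, with some letters left free, were also searched. The stricter of these stood in 3 (8.57%), against 1.41%, and the looser in 3 (8.57%), against 4.65%. Both times these were Ltb, Tnfrsf25 and Tnfrsf9. The looser match of Tnfrsf9 lies 43 to 34 bases before its RefSeq start. A longer NFAT motif stood in 0, against 0.359%. Matches are letters in a window and not evidence of binding. They are shown for 4 members called in replicate 2, 3 lower and 1 higher, with every match in capitals, 5′ to 3′ on the strand of the gene. The windows are chr4:145315165-145315414 (minus strand) for Tnfrsf8, chr17:35194257-35194438 (plus) for Ltb, stopped before its annotated exon, chr17:57194182-57194431 (minus) for Tnfsf14 and chr19:34290409-34290658 (plus) for Fas.
Tnfrsf8: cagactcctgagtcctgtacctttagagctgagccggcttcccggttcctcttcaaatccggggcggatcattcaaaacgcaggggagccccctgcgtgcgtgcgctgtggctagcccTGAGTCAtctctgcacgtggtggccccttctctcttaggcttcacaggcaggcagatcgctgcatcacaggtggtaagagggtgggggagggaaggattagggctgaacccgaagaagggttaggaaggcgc
Ltb: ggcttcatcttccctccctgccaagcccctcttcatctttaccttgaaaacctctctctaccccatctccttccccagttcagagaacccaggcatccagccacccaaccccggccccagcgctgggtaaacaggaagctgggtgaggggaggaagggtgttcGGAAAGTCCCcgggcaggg
Tnfsf14: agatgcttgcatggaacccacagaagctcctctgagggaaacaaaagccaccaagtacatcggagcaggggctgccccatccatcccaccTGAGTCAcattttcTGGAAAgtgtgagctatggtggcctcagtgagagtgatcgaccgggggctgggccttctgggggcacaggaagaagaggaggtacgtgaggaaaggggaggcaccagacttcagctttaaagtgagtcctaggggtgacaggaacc
Fas: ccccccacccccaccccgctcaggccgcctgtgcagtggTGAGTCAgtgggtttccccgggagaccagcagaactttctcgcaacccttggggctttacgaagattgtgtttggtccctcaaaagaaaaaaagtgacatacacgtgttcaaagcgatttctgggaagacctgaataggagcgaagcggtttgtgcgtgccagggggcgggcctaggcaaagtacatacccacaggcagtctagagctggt
The match in Ltb is the kappaB motif on the opposite strand, 87 to 78 bases before the RefSeq start at chr17:35194507. That start lies inside the annotated gene, which begins at chr17:35194439, just after the printed window. The match is thus closer to the annotated exon than to the RefSeq start. The TGAGTCA of Tnfrsf8 lies 132 to 126 bases before its RefSeq start and that of Fas 211 to 205 bases. That of Tnfsf14 lies 160 to 154 bases before its RefSeq start and is followed by TGGAAA. The same AP-1 letters thus stand before genes that were lower and before one that was higher.

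The genes around the receptors were taken from 3 lists of pathway members. Of 30 adaptors and signalling genes, all lay above 1 TPM, and in replicate 2 there were 7 higher, 5 lower and 18 without a call, with a median log2 change of 0.15. The 12 called of 30 compare with the same 31.1% of all genes at 5 TPM or more. Traf1, a TRAF that NF-kappaB induces, rose by 0.60 (SE 0.04, adjusted p = 2.7e-09), at 204 TPM in replicate 2, against 143, 138 and 141 TPM. Traf4, at 190 ± 24.8 TPM (SD, n = 4), rose by 0.41 (adjusted p = 1.97e-06) and Traf2 by 0.36 (adjusted p = 0.000953), while Tnip1, a restraint on NF-kappaB and the most abundant of the list at 312 ± 15.2 TPM (SD, n = 4), was not called (adjusted p = 0.0563).

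Of 16 genes that process the ligands or their RNA, 15 lay above 1 TPM, and 3 were higher, 2 lower and 11 without a call. The 5 called of 16 compare with 31.1% of all genes at 5 TPM or more. Furin, a convertase of many precursor proteins, stood highest at 372 ± 14.0 TPM (SD, n = 4), followed by Itgb1, an integrin chain, at 229 ± 23.2 TPM, which fell by 0.24. Adam17, the protease that sheds TNF, stood at 68.0 ± 2.35 TPM and was not called. Zc3h12a, or Regnase-1, and Zfp36, or tristetraprolin, both of which destabilise cytokine RNAs, were higher by 0.42 (adjusted p = 1.15e-06) and 0.38 (adjusted p = 0.00126), and their relative Zfp36l2 by 0.25.

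The last list held 26 target, feedback and pathway genes of TNF receptor signalling. Of these, 25 were tested and 22 lay above 1 TPM, with a median log2 change of -0.08 in replicate 2. Nfkbia, the NF-kappaB inhibitor, stood highest at 1601 ± 42.7 TPM, followed by Junb, an AP-1 subunit, at 1299 ± 42.3 TPM and Nfkb2 at 743 ± 106 TPM (SD, n = 4 each). Junb was higher by 0.13 and Nfkb2 by 0.44 in replicate 2. The largest called changes were those of Cxcl10 (-1.77, SE 0.36), Tnfaip2 (-1.66, SE 0.48) and Cxcl1 (1.18, SE 0.39). These genes were low, with means of 3.07 TPM for Cxcl10, 0.862 TPM for Tnfaip2 and 1.77 TPM for Cxcl1. This list had equal numbers in both directions, with 16 called of 25, against 22.5% of all genes tested and 31.1% of those at 5 TPM or more. It shares Traf1, Birc3 and Tnfaip3 with the adaptors.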

How the data were processed

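The authors deposited raw gene counts, made per the file headers with featureCounts 1.4.6-p4, which counted fragments over exons by GENCODE M13 gene, on the mm10 genome, with strand option 2 and both read ends required. Which aligner made the input is not given in the sources used here. Per the labels, the assay was total RNA-seq, although a linked protocol's title names poly(A)+ RNA. Column 6 of the same files, gene length, was used with the counts to compute TPM. Symbols came from GENCODE M21, and 224 of 50600 IDs found none there. Tests used edgeR 4.0.16 (quasi-likelihood, robust prior) in R 4.3.3 on genes with at least 10 counts summed, with limma 3.58.1 and DESeq2 1.42.0 as alternatives; Python 3.11.15 made the tables. The procedure was tested on simulated counts. The members, lists and tests were chosen with earlier results of these data known. For each pathway list, the text names the 3 genes with the highest mean TPM and the 3 with the largest called change; Adam17 and the single genes of the cell type marker lists were picked after their values were seen. Floors of 3 counts cover counting error only.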

Additional observations from a re-analysis of the deposited data

Results flagged for a closer look

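In 4 of the 37 members tested, 1 library lay far from the other 3 by Dixon's criterion, and it was replicate 2 each time. Fas stood at 122 TPM there, against 74.8, 75.6 and 73.3 TPM in replicates 1, 3 and 4. Tnfsf4 stood at 172 TPM, against 129, 130 and 126 TPM. Tnfsf15 stood at 1.46 TPM, against 0.483, 0.483 and 0.347 TPM. Tnfrsf9 stood at 70.1 TPM, against 135, 128 and 125 TPM. Chance alone marks about 1 in 20 such groups. Here 10.8% of the members were marked, against 10.5% of all genes tested and 11.8% of those at 5 TPM or more, so the family was marked about as often as other genes.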

How the results depend on the processing

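No paired analysis was possible because all 4 libraries form 1 group. Of the 23 members called in replicate 2, 19 stayed called under all 8 alternatives, and Tnf, Tnfrsf1b, Fasl and Tnfsf15 were lost under some, as given above. Tnfsf12, with 3 counts in replicate 2, turned to -0.23 without replicate 1. With at least 100 counts, 0 members lay below 1 TPM and 290 genes did, and with no filter 8215 genes did, since the filters change how many low genes are tested. DESeq2 called 2 genes lower in replicate 1, 14 higher and 1 lower in replicate 3, and 1 higher and 2 lower in replicate 4. With no filter 17 genes were higher in replicate 3, where the cause was not tested. Leaving out 1 library in turn, the genes called in replicate 1 ranged from 0 to 43 higher and 0 to 25 lower, in replicate 3 from 0 to 97 higher and 0 to 11 lower, and in replicate 4 from 0 to 6 higher and 0 to 3 lower, with the top of each range reached without replicate 2. At this depth, members with fewer than 10 counts in all could not be tested.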

Other observations

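Some genes with family names or receptors of the same fold were not among the 40. Of 10 found in the files, 6 were tested and 3 lay above 1 TPM. Eda2r, the receptor of ectodysplasin A2, stood at 12.1 TPM in replicate 2, against 6.91, 6.82 and 6.87 TPM in replicates 1, 3 and 4, a log2 change of 0.88 (SE 0.11, adjusted p = 2.73e-06, edgeR). Relt, a receptor of lymphoid tissue, averaged 17.7 ± 2.28 TPM (SD, n = 4) and was lower at -0.33 (adjusted p = 0.0373), a call lost with DESeq2 and without replicate 4. Tnfaip1, whose name comes from its induction by TNF, stood highest of these, at 76.3 TPM on average, and was not called.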
